A study of Mus musculus with 4 samples.

Results

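The genes described here are the noncoding genes that start on mouse chromosome 12 from Meg3 up to, but not including, Dio3. They were taken by their RefSeq position (assembly GRCm38.p6), and a gene was kept where a probe set of the array named it and no other gene. That left 53 genes of the 22180 tested: 43 microRNA genes, 6 small nucleolar RNA (snoRNA) genes and the 4 long noncoding RNA genes Meg3, Rian, 3110009F21Rik and Dio3os. RefSeq places 99 genes in this interval. Another 18 of them are named only on probe sets shared by several genes, among them the long noncoding gene Mirg and the only protein-coding gene, Rtl1, and 28 are on no named probe set. The interval was picked for description with the day 7 minus day 4 differences of these arrays already known. Those differences, and the members that passed a p-value limit, are therefore given as a description and support nothing.

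The aggregates were profiled on 4 arrays of total RNA. One set (2 arrays) was retinal aggregates at day 7 of differentiation, and the other (2 arrays) the same kind of aggregate at day 4. All came from the wild-type mouse embryonic stem cell line Rx-GFP, which was derived from EB5 (129/Ola strain), carries GFP knocked in at the Rx (Rax) promoter and was grown in medium with matrigel. All results thus come from 1 cell line, and the labels do not say whether replicates were separate cultures, so the spread between arrays may be technical. Signals are log2 values made with RMA, so that a difference of 1 is a 2-fold difference. Array medians lay between 5.68 and 5.77, and the arrays of a day correlated with r = 0.991 (day 7) and r = 0.986 (day 4) over all probe sets. Of the eye field list 3 of 5 measured genes were called higher at day 7 and of the neural progenitor list 5 of 5, while 4 of 6 pluripotency genes were called lower. Of all genes tested 6.15% were called higher and 4.33% lower. The calls of Rax, Nes and Fabp7 were lost in 1 or more fits that left out 1 array, and the other calls on these lists were kept. The pluripotency genes averaged 8.21 and 8.41 at day 7 and 10.35 and 10.12 at day 4, and the neural progenitor genes 10.15 and 9.91 at day 7 and 7.79 and 7.85 at day 4. The part of this change of cell state in the results below was not tested.

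The interval is part of an imprinted domain. On the maternally inherited chromosome it is transcribed into Meg3, Rian and Mirg, long RNAs that hold box C/D snoRNAs and one of the largest groups of microRNAs in placental mammals. The paternally inherited copy, which is methylated at the control region upstream of Meg3, instead expresses the protein-coding genes Dlk1, Rtl1 and Dio3. The maternal RNAs are on in fully potent mouse stem cells and later in brain, where several of the microRNAs, such as miR-134 in rat neurons, act on dendrites.

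A microRNA pairs with its targets mainly through its seed, bases 2 to 8. RefSeq gives 81 mature sequences for the 43 microRNA members, with 73 different seeds, and each of the 8 seeds that recur is shared by 2 members. Pairs of members with a shared seed are shown first, from the RefSeq table of GRCm38.p6 (C57BL/6J), 5′ to 3′, with the seed in capitals. All lie on the plus strand of chromosome 12.

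mmu-miR-379-5p: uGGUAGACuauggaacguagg

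mmu-miR-1193-5p: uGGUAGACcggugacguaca

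mmu-miR-376b-5p: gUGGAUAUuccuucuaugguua

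mmu-miR-376c-5p: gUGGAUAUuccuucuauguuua

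mmu-miR-453: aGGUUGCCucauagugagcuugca

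mmu-miR-496a-5p: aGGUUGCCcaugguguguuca

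mmu-miR-3070-3p: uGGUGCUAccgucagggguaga

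mmu-miR-3070-2-3p: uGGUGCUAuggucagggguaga

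The first of these is at chr12:109709065-109709085 and the last, from Mir3070b, at chr12:109588648-109588669. The next sequences belong to the other members with the lowest day 7 minus day 4 differences, Mir493, Mir544 and Mir882.

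mmu-miR-493-5p: uUGUACAUgguaggcuuuc

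mmu-miR-493-3p: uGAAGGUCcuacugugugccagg

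mmu-miR-544-3p: aUUCUGCAuuuuuagcaagcuc

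mmu-miR-882: aGGAGAGAguuagcgcauuagu

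For contrast, the last pair comes from Mir673 and Mir666, the microRNA members with the smallest differences.

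mmu-miR-673-5p: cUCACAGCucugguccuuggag

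mmu-miR-666-5p: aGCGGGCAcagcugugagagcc

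The probe sets are named for the microRNA genes. They do not tell the arms of a hairpin, or the primary transcript and the mature microRNA, apart, so a value below belongs to the gene and not to the printed strand alone.

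Signal of the cluster was lower at day 7 almost throughout. The median over the 53 genes was 6.66 and 6.58 on the day 7 arrays, against 8.31 and 7.65 on the day 4 arrays. The day 7 minus day 4 difference was below 0 for 52 of 53 genes, with a median of -1.30 log2 (2.46-fold lower), beside a median of -0.004 over all 22180 genes. It was at least 2-fold lower for 40 of 53 members. Both day 7 values lay below both day 4 values for 48 of the 53, a pattern that 25.1% of all genes tested showed, and the reverse order, shown by 25.6% of all genes, was seen in 0 members. The exceptions were Mir673, Mir370, Mir376a, 3110009F21Rik and Dio3os, whose days overlapped. As these are whole aggregates, fewer cells with these RNAs and less of the RNA per cell cannot be told apart.

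In limma's fit over all genes 33 members were called lower (adjusted p under 0.05), where 4.33% of all genes were, and 0 were called higher, where 6.15% of all genes were. At an unadjusted p under 0.05, limma gave 47 members lower and 0 higher. The share of all genes at that unadjusted limit was not counted, for this or for the other unadjusted counts below. The shares above are at the adjusted limit and cannot stand in for it. With replicate 2 as the only day 7 array, 12 members were called lower (beside 1.42% of all genes), and with replicate 1 as the only one, 11 (beside 1.78%). The median member difference was -0.93 when day 4 was replicate 2 alone, beside -0.02 over all genes. It was -1.74 when day 4 was replicate 1 alone, beside 0.02 over all genes. Since the interval was chosen on this contrast, nothing is read from these counts.

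**Figure D1:**
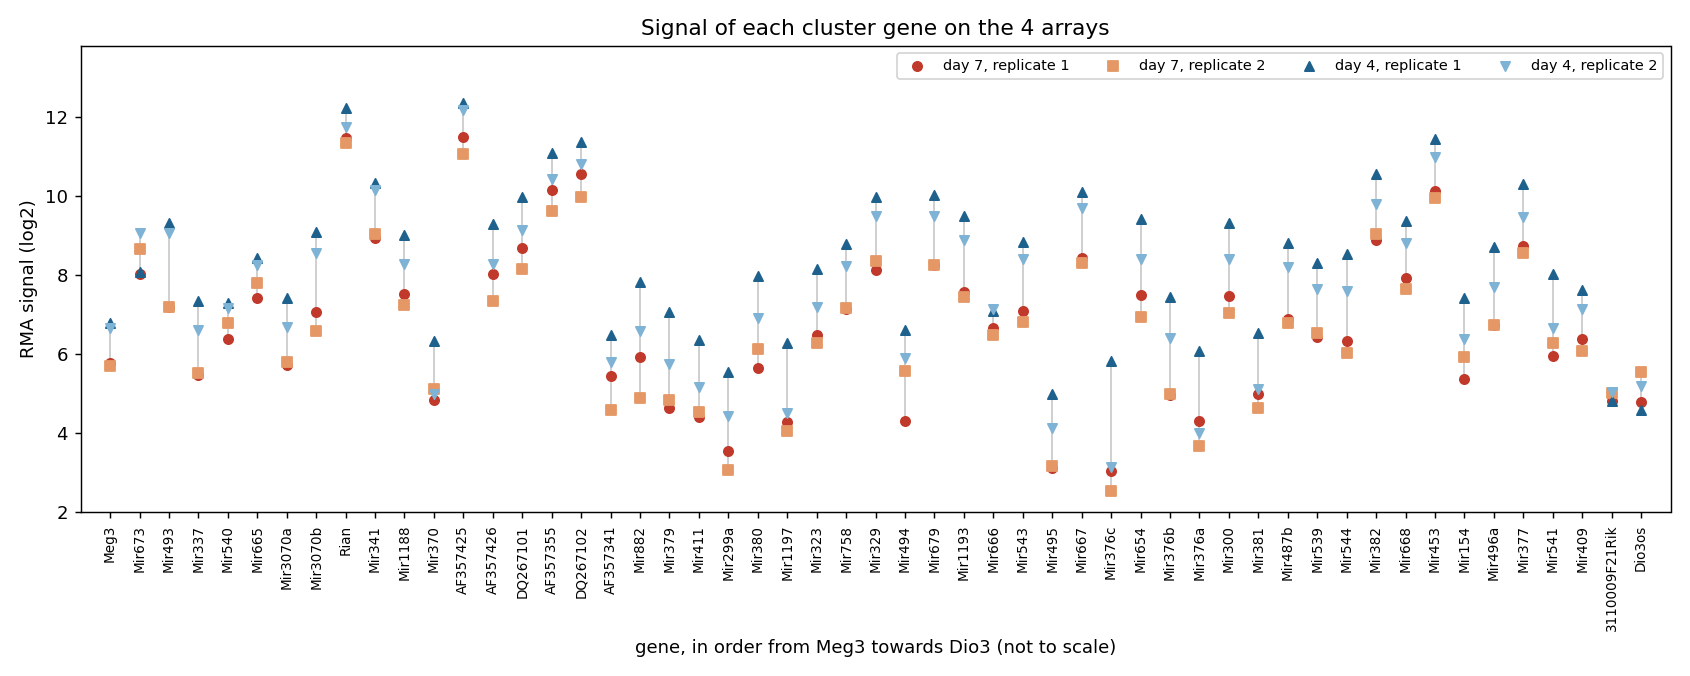
RMA signal (log2, vertical axis) of the 53 cluster genes on each of the 4 arrays, with the genes in order from Meg3 towards Dio3 and a grey line from the lowest to the highest array. Both day 7 points lie below both day 4 points for 48 genes, and day 4 replicate 1 is above day 4 replicate 2 for 49.

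Of the long host transcripts, Meg3, a noncoding RNA known as a growth suppressor in human cells, was read by probe set 17283955 at 5.78 and 5.70 at day 7 and at 6.78 and 6.66 at day 4. Its days were clearly apart and its replicates close, and the difference was -0.99 log2 (SE 0.141). This probe set lay in the middle of the array's range (49.1th percentile of all genes), and neither labels nor annotation state the strand that it reads. RefSeq has Meg3 on the plus strand, whereas 37 of the 40 named chromosome 12 neighbours in probe set number, 20 on each side and outside the cluster, are on the minus strand. The same was so for the dimmer of 2 probe sets of Mir299a, Mir380, Mir376a and Mir409. At the brighter probe sets of those genes 39 of the 40 neighbours were on the plus strand. The dimmer probe sets differed by -0.37 for Mir299a, -0.66 for Mir380, -0.72 for Mir376a and -0.54 for Mir409, all less than the -1.70, -1.56, -1.05 and -1.16 of the brighter ones.

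A pair of brighter probe sets names Meg3 together with a microRNA gene inside it. The probe set that names Meg3 and Mir770 read 9.63 and 9.87 at day 7 and 10.55 and 10.23 at day 4, a difference of -0.64 (SE 0.186). The probe set that names Meg3, Mir1906-1 and Mir1906-2 read 8.99 and 9.30 at day 7 and 10.42 and 9.76 at day 4, a difference of -0.94 (SE 0.259). Neither overlapped between days. In the fit of all 41345 probe sets, which called 1.35% of them lower at day 7, neither was called.

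The promoter of Meg3 is the only one of the cluster shown here, because the microRNA members lie downstream of it on the same strand. The 300 bases of RefSeq sequence at chr12:109540746-109541045 (GRCm38.p6, plus strand, 250 before to 50 after the start) hold the cAMP response element TGACGTCA, which has been studied in the human promoter, and the TATA motif TATAAA. Both are in capitals, and both strands were searched.

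Meg3 promoter: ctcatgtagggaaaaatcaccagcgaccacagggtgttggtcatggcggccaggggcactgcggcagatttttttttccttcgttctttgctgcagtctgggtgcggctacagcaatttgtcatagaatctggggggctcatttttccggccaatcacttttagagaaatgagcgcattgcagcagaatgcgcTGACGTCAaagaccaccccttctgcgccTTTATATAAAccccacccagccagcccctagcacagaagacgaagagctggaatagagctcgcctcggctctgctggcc

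TGACGTCA, which reads the same on either strand, began at base -57, and 1.79% of 32851 RefSeq promoter windows of that length held it. TATAAA was matched at base -25 and, on the other strand as TTTATA, at base -29, so that the matches overlap, and 13.6% of windows held it. The match is a description of these letters. None (0) of the 5 windows of Rian, Mirg, 6430411K18Rik, 3110009F21Rik and Dio3os held either motif.

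Rian, the long RNA that hosts most of the snoRNAs, was among the brightest genes of the array, at the 98.5th percentile of all genes at day 7 and the 99.4th at day 4. It read 11.48 and 11.35 at day 7 and 12.23 and 11.75 at day 4, with a difference of -0.58 (SE 0.189). Its days did not overlap, but day 4 replicate 2 was only slightly above the day 7 arrays, and limma did not call it.

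The last of the long RNAs, Mirg, hosts the microRNA run from Mir379 to Mir410 and had no probe set of its own. The 3 probe sets that name it together with microRNA genes had differences of -0.82 (with Mir134), -1.27 (with Mir485) and -1.20 (with Mir369, Mir410 and Mir412). Each had both day 7 values below both day 4 values.

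At the far end of the interval the pattern was not seen. The uncharacterised noncoding gene 3110009F21Rik read 4.82 and 5.02 at day 7 and 4.82 and 5.03 at day 4. Dio3os, transcribed away from Dio3, read 4.78 and 5.55 at day 7 and 4.58 and 5.19 at day 4. Both were dim, with days that overlapped and differences of -0.001 (SE 0.156) and 0.28 (SE 0.295). They lie 611 and 734 kb from the start of Meg3, whereas the other 51 members lie within the first 202 kb. Both are also on the minus strand, whereas Meg3, Rian and the microRNA members are on the plus strand. The part of distance or strand was not tested.

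**Figure D2:**
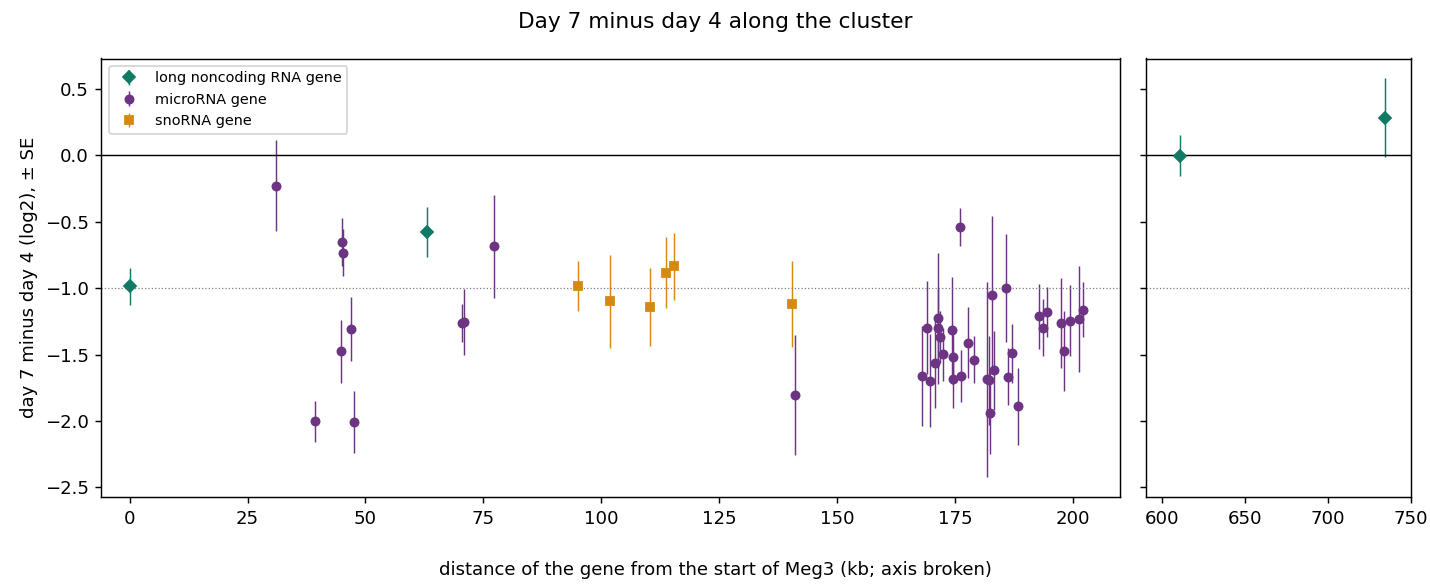
Day 7 minus day 4 (log2, vertical axis) with limma's standard error for each cluster gene, against its distance from the start of Meg3 (kb; the axis is broken between the panels, whose scales differ). All genes within 202 kb lie below 0, and the 2 in the right panel lie at -0.001 and 0.28.

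The 6 snoRNA genes, whose products belong to the box C/D class that guides methylation of other RNAs, were all lower at day 7. Their differences ran from -0.84 to -1.14 log2, with a median of -1.04, and all 6 had both day 7 values below both day 4 values. Of all genes tested 25.1% showed that order, and 39 of the 75 snoRNA genes outside the cluster did. AF357425, the brightest member of the cluster, read 11.50 and 11.05 at day 7 and 12.35 and 12.18 at day 4, a difference of -0.98 (SE 0.187). It was the one snoRNA member that limma called lower with all 4 arrays, where 4.33% of all genes were. When 1 array was left out, the difference of AF357425 ran from -0.76 (without day 7 replicate 2) to -1.21 (without day 7 replicate 1).

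DQ267102 read 10.55 and 9.97 at day 7 and 11.37 and 10.82 at day 4, and AF357355 differed by -0.88 (SE 0.265). DQ267101, AF357426 and AF357341 differed by -1.14, -1.10 and -1.12, with standard errors of 0.295 to 0.350. In all 6, replicate 1 was above replicate 2 on each day. A second probe set of DQ267101 differed by -1.25.

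Among the 43 microRNA genes all differences were below 0, from -0.23 to -2.004, with a median of -1.37 (2.58-fold lower). Limma called 31 lower, beside 4.33% of all genes tested and 4.37% of the microRNA genes outside the cluster. Across the 43 genes, which share the same 4 arrays, Spearman's rho was 0.02 between the mean level and the difference and 0.04 between the distance from Meg3 and the difference.

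The group nearest to Meg3 held both the largest and the smallest of them. Mir3070b read 7.06 and 6.58 at day 7 and 9.09 and 8.55 at day 4, a difference of -2.004 (SE 0.234, 4.01-fold lower). Mir493 read 7.19 and 7.19 at day 7 and 9.32 and 9.06 at day 4, a difference of -2.002 (SE 0.153, 4.00-fold lower). In both the days were far apart beside the replicates. Mir673, the first microRNA member beyond the end of Meg3, read 8.03 and 8.67 at day 7 and 8.08 and 9.08 at day 4. Its days overlapped, and its difference of -0.23 was smaller than its standard error of 0.342.

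Within the same stretch Mir540 and Mir665 differed by -0.65 (SE 0.180) and -0.73 (SE 0.176). Mir337 and Mir3070a differed by -1.47 (SE 0.238) and -1.31 (SE 0.241). Mir3070a and Mir3070b share a seed on each arm, and whether their differences are unequal was not tested.

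The next microRNA members lie within the span of Rian, as most of the snoRNA members do. Mir341 read 8.95 and 9.03 at day 7 and 10.33 and 10.16 at day 4, a difference of -1.26 (SE 0.144). Its neighbour Mir1188 differed by -1.25 (SE 0.248). Mir370 was dim and uneven, with 4.83 and 5.12 at day 7 and 6.32 and 4.99 at day 4. Day 4 replicate 2 of Mir370 lay between the day 7 arrays.

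Past Rian, Mir882 read 5.91 and 4.88 at day 7 and 7.83 and 6.58 at day 4, a difference of -1.81 (SE 0.452). The arrays of each day were over 1 log2 apart, although the days did not overlap. Its difference was -1.18 with day 4 replicate 2 alone and -2.43 with day 4 replicate 1 alone.

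The run from Mir379 to Mir409 holds 32 of the microRNA members in 34.1 kb. All 32 were lower at day 7, 30 of them at least 2-fold, with a median of -1.44. For 31 both day 7 values lay below both day 4 values, as for 25.1% of all genes tested. The quartiles of the run were -1.66 and -1.24. Mir379, its first gene, read 4.65 and 4.85 at day 7 and 7.06 and 5.76 at day 4, and Mir1193, with which it shares a seed, 7.57 and 7.45 at day 7 and 9.51 and 8.88 at day 4.

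The brightest gene of the run was Mir453, at 10.12 and 9.96 at day 7 and 11.44 and 10.99 at day 4, a difference of -1.18 (SE 0.186). Mir382 read 8.90 and 9.04 at day 7 and 10.56 and 9.81 at day 4, a difference of -1.21 (SE 0.245). Mir377, next in brightness, differed by -1.24 (SE 0.267). Mir377 was at the 76.8th percentile of all genes at day 7 and the 90.7th at day 4, and the other two were above it on both days.

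Mir667 read 8.42 and 8.32 at day 7 and 10.11 and 9.71 at day 4, a difference of -1.54 (SE 0.175). Mir679 read 8.25 and 8.26 at day 7 and 10.04 and 9.51 at day 4, a difference of -1.51 (SE 0.196). Their day 7 values were tight, and replicate 1 was above replicate 2 at day 4 by 0.40 and 0.53, beside a median of 0.89 over the run. Mir329, whose microRNA takes part in activity-dependent dendrite growth in rat neurons, differed by -1.50 (SE 0.198), Mir668 by -1.30 (SE 0.215) and Mir1193 by -1.69 (SE 0.217).

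The lowest differences of the run were those of Mir376b and Mir544. Mir376b read 4.97 and 4.999 at day 7 and 7.44 and 6.41 at day 4, a difference of -1.94 (SE 0.307, 3.84-fold lower). Mir544 read 6.33 and 6.02 at day 7 and 8.52 and 7.61 at day 4, a difference of -1.89 (SE 0.291, 3.71-fold lower). In both, the lower day 4 array was still more than 1 log2 above each day 7 array.

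The other miR-376 genes, whose family is known for RNA editing of the seed, were near the bottom of the array's range and uneven at day 4. Mir376c read 3.05 and 2.54 at day 7 and 5.82 and 3.15 at day 4, and Mir376a 4.30 and 3.69 at day 7 and 6.09 and 4.00 at day 4. For both, day 4 replicate 1 alone stood well above the other arrays, and limma called neither. With Mir299a and Mir495 these were the 4 members under the 25th percentile of level (4.60).

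At the other end of the range, Mir666 read 6.66 and 6.49 at day 7 and 7.09 and 7.13 at day 4. Its difference of -0.54 (SE 0.143) was the smallest of the run. It was also the only gene of the run with day 4 replicate 1 below replicate 2. Mir543 and Mir496a, whose microRNAs limit N-cadherin in the mouse embryonic cortex, differed by -1.66 (SE 0.196) and -1.47 (SE 0.303).

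The microRNA genes antisense to Rtl1, a retrotransposon-derived gene needed in the placenta, were read only by probe sets that also name Rtl1. The probe set for Mir433 and Mir127 (with Rtl1 and 6430411K18Rik) read 7.59 and 7.54 at day 7 and 9.45 and 8.82 at day 4, a difference of -1.57 (SE 0.237). That for Mir432 read 8.25 and 7.97 at day 7 and 9.41 and 9.06 at day 4, a difference of -1.12 (SE 0.196). The remaining 4, with Mir431, Mir434, Mir136 and Mir3071, differed by -0.25 to -0.65. Signal of Rtl1 and of the microRNA genes opposite it cannot be told apart in them.

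In all, 12 probe sets named several genes with at least 1 of the interval. All 12 had both day 7 values below both day 4 values (25.1% of the genes tested did), with a median difference of -0.85. In the fit of all probe sets 2 of them were called lower.

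Genes of the same kinds elsewhere in the genome were set beside the cluster. The 435 microRNA genes outside it had a median difference of -0.03, with 19 called lower (4.37%) and 14 higher. The 218 of them at or above the 25th percentile of level had the same median of -0.03. The 75 snoRNA genes outside had a median of -0.26, against -1.04 for the 6 in the cluster. Limma called 11 of the 75 lower (14.7%) and 0 higher. Of all genes tested 4.33% were called lower and 6.15% higher. At an unadjusted p under 0.05, limma gave 25 lower and 0 higher, a limit at which the share of all genes was not counted. Of the 75, 65 had a difference below 0, and 39 had both day 7 values below both day 4 values (25.1% of all genes did). These are counts and medians without a test.

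**Figure D3:**
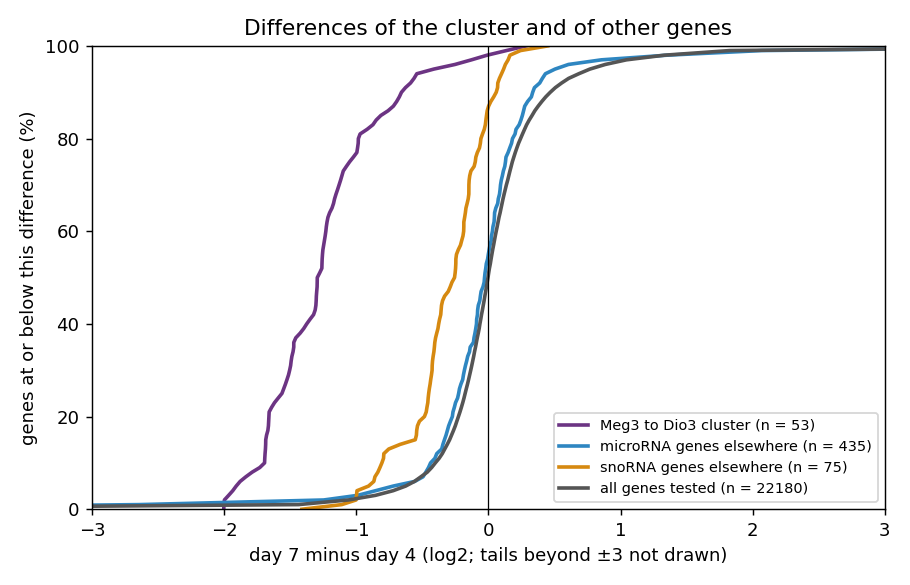
Cumulative share of genes (vertical axis, %) at or below each day 7 minus day 4 difference (log2, horizontal axis), for the 53 cluster genes, 435 microRNA genes and 75 snoRNA genes elsewhere, and all 22180 genes. The cluster has its median at -1.30, the other microRNA genes at -0.03, the other snoRNA genes at -0.26 and all genes at -0.004.

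None of the genes beside the interval was called. Dlk1, the paternally expressed gene upstream of Meg3, which encodes a membrane protein related to Notch ligands, read 6.92 and 8.96 at day 7 and 6.40 and 7.09 at day 4. Its difference was 1.19 (SE 0.590), with day 7 replicate 2 far above the other arrays. It was 0.17 without that array, and 2.22 and called (limma adjusted p = 0.0181) without day 7 replicate 1. Dio3, which inactivates thyroid hormone and bounds the interval at the other end, read 4.71 and 5.19 at day 7 and 4.59 and 4.83 at day 4. Of 8 flanking genes (Wars, Wdr25, Begain, Dlk1, Dio3, Ppp2r5c, Dync1h1 and the member Dio3os) limma called 0, beside 10.5% of all genes in either direction. At an unadjusted p under 0.05 limma also gave 0 of the 8.

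The 2 day 4 arrays stood apart from each other in the cluster, and less widely in snoRNA genes elsewhere. Replicate 1 was above replicate 2 for 49 of 53 members, by a median of 0.70 log2, and for 59 of the 75 snoRNA genes outside, by a median of 0.24. Over the microRNA genes outside and over all genes the median was -0.01. Of the 82 genes on the whole array with replicate 1 more than 1 log2 above replicate 2 at day 4, 16 were members, and Mir376c, at 2.67, had the widest such gap of all 22180 genes. At day 7 replicate 1 was above replicate 2 for 30 of 53, by a median of 0.10. Without day 4 replicate 1 the median difference of the cluster was -0.93, and all 53 members were below 0. Without day 4 replicate 2 it was -1.74, and 50 of 53 were below 0.

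Some other values also differed between this single pair of arrays, and others differed little. On day 4 replicate 1 the mean of the 6 pluripotency markers was 10.35, with replicate 2 at 10.12, and 6 of 6 were higher in replicate 1. Of all genes, 10744 of 22180 were. Pou5f1 (0.62) and Tdgf1 (0.44) had the widest of these gaps, and those of Fgf5, Utf1, Zfp42 and Nanog were 0.04 to 0.14. The mean of the 5 eye field genes was 6.36 in replicate 1 and 7.08 in replicate 2, with 0 of 5 higher in replicate 1. The neural progenitor list was mixed, with means of 7.79 and 7.85 and 2 of 5 genes higher in replicate 1. The neuron list had means of 7.57 and 7.63, with 4 of 6 genes higher in replicate 1. The gap was also wider for hairpins with little G and C (Spearman's rho -0.60 over 41 microRNA members with a RefSeq hairpin) and for dim genes (rho -0.69 over 43). The hairpins spanned 29.1% to 62.0% GC. For 359 microRNA genes outside the cluster, also taken at any level, rho between GC and the same gap was -0.35. For the 175 of them at or above the 25th percentile of level it was -0.46. At day 7 it was -0.07 in the cluster. The part of the cell state or of base composition in the gap, or in the day 7 minus day 4 differences, was not tested.

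**Figure D4:**
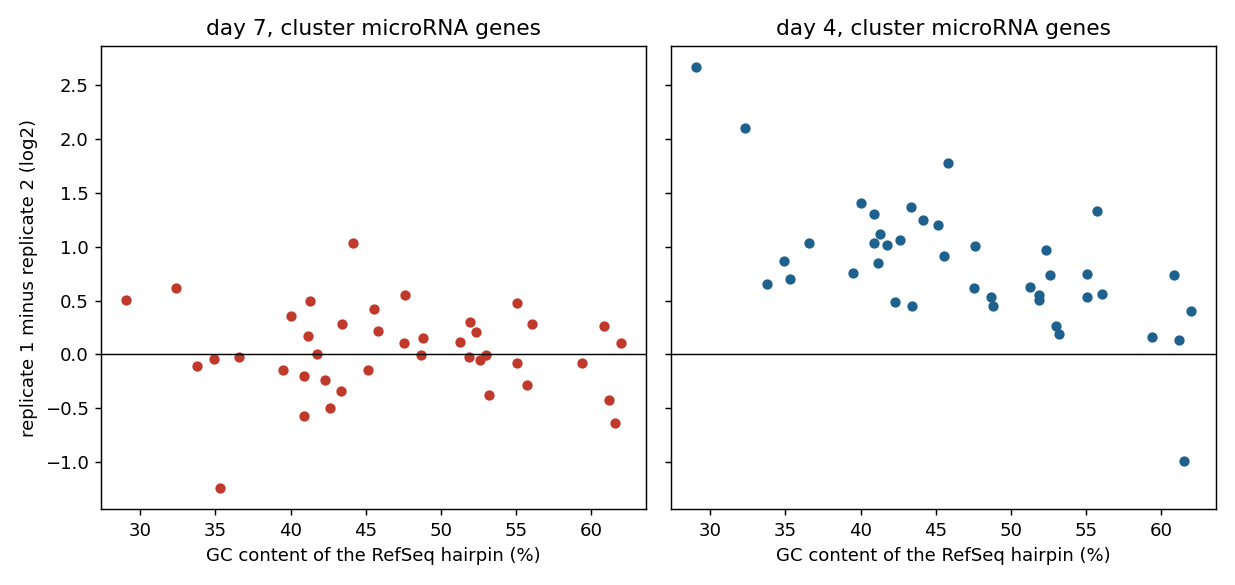
Replicate 1 minus replicate 2 (log2, vertical axis) for each of 41 cluster microRNA genes, against the GC content of its RefSeq hairpin (%), at day 7 on the left and day 4 on the right. At day 4 all but 1 of the points lie above 0 and the widest gaps are at low GC (rho -0.60), while the day 7 points lie on both sides of 0 (rho -0.07).

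Genes that act on the imprint or on these RNAs were counted from lists. Over all genes tested limma called 4.33% lower and 6.15% higher, the shares that stand beside each of these lists. Of 14 measured imprint maintenance genes 5 were called lower and 0 higher (limma, 3 higher at an unadjusted p under 0.05). Dnmt3b, a de novo DNA methyltransferase gene, fell to 8.66 and 8.71 at day 7, against 12.20 and 11.997 at day 4 (limma adjusted p = 7.24e-05). Tet1, a gene of the DNA demethylation pathway, fell to 8.99 and 9.44 at day 7, against 10.29 and 10.27 at day 4 (limma adjusted p = 0.0114, 0.0873 without day 7 replicate 1). Aff3, whose protein binds the control region of this domain in mouse stem cells, was called at -0.75 log2 (limma adjusted p = 0.02), but not when day 7 was replicate 2 alone (0.0873) or replicate 1 alone (0.163).

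Dnmt3a and Dnmt3l, the other genes of that list called lower, differed by -0.70 and -0.73, and their calls were lost without either day 7 array (limma adjusted p of 0.164 and 0.124 for Dnmt3a, 0.288 and 0.0587 for Dnmt3l) and without day 4 replicate 1 (0.0632 and 0.112). That of Dnmt3l was also lost without day 4 replicate 2 (0.0675). Zfp57 and Trim28, which hold the methylated imprint in stem cells, differed by -0.08 (SE 0.165) and -0.11 (SE 0.145) and were not called. Of 4 Polycomb genes limma called 0, with 1 higher (Ezh2) and 1 lower (Jarid2) at an unadjusted p under 0.05.

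Among 12 measured microRNA processing genes limma called 2 higher and 1 lower, beside 6.15% and 4.33% of all genes. Drosha, which cuts the hairpin from its transcript, read 10.21 and 10.10 at day 7 and 9.98 and 10.19 at day 4, and Dicer1 differed by 0.33 (SE 0.145), and neither was called. Lin28a, which blocks let-7 maturation, fell to 9.77 and 9.90 at day 7, against 10.76 and 10.95 at day 4 (limma adjusted p = 0.00618, 0.0699 without day 7 replicate 1). The genes called higher, Ago1 and Lin28b, differed by 0.62 and 0.59. Ago1 was not called without day 4 replicate 2 (adjusted p = 0.108) or without day 7 replicate 1 or 2 (0.266 and 0.166), and Lin28b without any 1 of the arrays (0.0703 to 0.233). Of 6 measured box C/D snoRNP genes limma called 0, with 1 lower (Nop58) at an unadjusted p under 0.05.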

How the data were processed

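Total RNA of 2 day 7 and 2 day 4 samples was made into biotin-labelled sense cDNA and hybridised to Affymetrix gene arrays, per the labels' protocols. The authors deposited a log2 value for each probe set on each array. Per the submitters' processing notes these came from Partek 6.5 with RMA, whose settings are not given in the sources used here. RMA normalizes the arrays to each other, so a shift shared by most genes would not show.

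In the platform annotation 23521 of the 41345 probe sets carry a single gene name. Gene position and class came from RefSeq (GRCm38.p6), by gene identifier for 52 members and by symbol for 1. Where a gene had several such probe sets, the one brightest on average was kept. The fit was limma 3.58.1 in R 4.3.3 (lmFit, eBayes, day as the only term, 2 residual degrees of freedom), two-sided, with Benjamini-Hochberg adjustment over 22180 genes and calls at an adjusted p under 0.05. SE is limma's moderated standard error. The fit was tested on simulated data with independent errors and spreads drawn from limma's own variance prior. That test follows the assumptions of the fit and does not cover shifts shared by many genes on an array, so nothing is concluded from it. Precision is limited by the number of arrays.

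The members and the lists were chosen with earlier results of these data known. Named members were the long RNA genes and, among microRNA and among snoRNA genes, the 10 brightest and the 5 with the largest difference in each direction. Others named were chosen after their values were seen. Lists for other cell types were checked too: of 6 measured genes each, limma called 1 higher and 1 lower for neurons, 1 higher and 1 lower for mesoderm, and 1 higher and 0 lower for endoderm. Over all genes tested limma called 6.15% higher and 4.33% lower.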

Additional observations from a re-analysis of the deposited data

How the results depend on the processing

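The replicate numbers are not said to pair samples: deviations of same-numbered arrays correlated with r = 0.186 over all genes and r = 0.354 over the members, from 1 pair of numbers. With the replicate block limma called 2770 genes in place of 2324 and 39 members lower in place of 33, among them 6 of 6 snoRNA genes in place of 1. Leaving out 1 array gave 887 to 2500 genes in all, 11 to 48 members lower, 0 members higher and a median member difference of -1.74 to -0.927. The lowest counts came without day 7 replicate 1 (887 genes, 12 members) or 2 (994 genes, 11 members), where 1 sample stands for day 7. With all 41345 probe sets as features, an alternative chosen after seeing the data, 1323 were called. The other settings were quantile normalization again, centring on array medians and a filter at the 25th percentile of level. A variance prior that follows intensity and averaging the probe sets of each gene were also tried. Under all of these settings 32 to 42 members were called lower, beside 4.37% to 6.32% of the genes tested, and 0 higher. The median was -1.296 to -1.253. The filter left 49 members. Of 250 values of the 25 named members under the alternatives 236 were below 0, and the other 14 were above 0. The sign of Mir673 (uncalled) changed without day 7 replicate 1 (0.09) or day 4 replicate 2 (0.27), and those of 3110009F21Rik and Dio3os, also uncalled, changed under some settings. In 3 of the 250 values the difference moved by more than the spread between replicates: Mir376b without day 4 replicate 1 (-1.42), and Mir679 without day 4 replicate 1 (-1.25) or 2 (-1.78). Over these and the list genes, 1010 values were compared and 0 called differences reversed. A list gene lost its call in 32 of these values and gained one in 22. Calls of members were not counted in that way, and some of them changed too. After quantile normalization again Mir882 lost its call and DQ267101 gained one. Mir376b lost its call without day 7 replicate 1 or 2, at differences of -1.93 and -1.95.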
